A study of Stropharia rugosoannulata with 3 samples.

Results

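The genes described here are 7 non-heme peroxidase genes of the wine-cap mushroom *Stropharia rugosoannulata*, out of 11750 gene models in the expression tables. They were taken by their SRUG identifier from the set that the genome study calls non-heme peroxidases, and all 7 were found in the tables. The list was made with earlier results of these data known, so it may not be free of a choice by level. Shares of the 7 genes beside those of all models are therefore a description only. They are SRUG_11529, SRUG_05238, SRUG_04254, SRUG_07277, SRUG_06711, SRUG_04690 and SRUG_08181. The study gives them the class non-heme peroxidase and marks each as not secreted, while no finer protein class of each gene was found in the sources used here. Further genes that the study places in this class were not analysed here. The shares, sums and medians below therefore cover these 7 genes and not the whole class.

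All libraries come from 1 group, mycelium of the commercial cultivar Heinong No. 1 grown on potato dextrose agar (PDA) plates at 25 °C. The titles of the samples name S68, a single-spore monokaryotic isolate of that cultivar, whereas the labelled strain is the cultivar itself, so it is not settled which of them gave the RNA. RNA was sequenced in 3 libraries, numbered 1 to 3 here, with between 29678333 and 31831513 counts each. The labels do not say whether the libraries came from separate cultures, so the spread between them may be technical. Pearson's r of log2(FPKM + 1) across all gene models, which are not independent replicates, was 0.985 between libraries 1 and 3 and lower, at 0.969 and 0.973, for library 2 against libraries 1 and 3. The counts of every pair of libraries differed by far more than sampling noise (chi-square per degree of freedom from 143 to 299), so none was a second copy of another.

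Peroxidases pass electrons to hydrogen peroxide or to organic peroxides and so remove them. The heme enzymes, to which the secreted manganese peroxidases of litter-decomposing fungi belong, do so with an iron porphyrin. The non-heme enzymes work without it. This class covers peroxiredoxins, glutathione peroxidases, alkylhydroperoxidases and related proteins, and the best-known of them use a reactive cysteine that is restored by thioredoxin or glutathione. In fungal cells such thiol peroxidases clear peroxide formed by respiration and by other oxidases. Which of these enzymes each of the 7 genes encodes was not examined, since protein sequences were not used here.

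The 7 genes did not form a single level of expression in the mycelium. One was among the most abundant transcripts of the fungus, 5 were well above the typical gene, and 1 was near or below it. FPKM, the measure used, counts the fragments that fall on a gene and scales them to gene length and library depth. With expression defined as a mean of 1 FPKM or more, all 7 genes were expressed, as were 83.3% of all gene models. All 7 also reached 1 FPKM in each of the libraries, against 80.9% of all models, and a mean of 5 FPKM, against 74.8%. These shares do not set the genes apart from the rest. A mean FPKM of at least 50 was reached by 6 of the 7 and by 29.7% of all models, and one of at least 100 by the same 6 and by 14.3% of all models. The median of the mean FPKM was 284 over the 7 genes and 23.9 over all gene models. Levels in bulk RNA do not tell a gene used weakly by all hyphae from one used strongly by a few.

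SRUG_11529 was the highest of the 7 in every library. It had 4462, 3478 and 3798 FPKM in libraries 1, 2 and 3, from 87774, 65369 and 69718 counts. The values lie close together, with library 1 the highest and library 2 the lowest. Its mean was 3913 ± 502 FPKM (SD, n = 3), which is 164 times the median gene model. Only 13 of the 11750 models had a higher mean, and its rank was 14, 15 and 13 in libraries 1, 2 and 3. It took 0.276% of all counts in library 1 (95% Wilson interval 0.273 to 0.278%), 0.214% in library 2 (0.212 to 0.217%) and 0.235% in library 3 (0.232 to 0.237%). These intervals take 2 counts as 1 fragment, cover counting error only and do not overlap, so the differences between libraries exceed the error of counting. The gene is model 18 of contig 18, the 17th of the 155 models listed there.

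SRUG_05238 and SRUG_04254 followed. SRUG_05238, model 513 of contig 5, had 432, 748 and 844 FPKM in libraries 1, 2 and 3, from 10532, 17424 and 19208 counts. Library 1 was well below the other libraries for this gene. Its mean was 674 ± 216 FPKM (SD, n = 3), rank 168 of all models. SRUG_04254, model 446 of contig 4, had 522, 376 and 811 FPKM, from 8584, 5916 and 12448 counts, so here library 3 was the highest and library 2 the lowest. Its mean was 570 ± 221 FPKM (SD, n = 3), rank 214.

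SRUG_07277, SRUG_06711 and SRUG_04690 lay close to each other in the mean and differed in their pattern over the libraries. SRUG_07277, model 221 of contig 8, had 244, 288 and 319 FPKM in libraries 1, 2 and 3 (4000, 4509 and 4881 counts), a narrow range, with a mean of 284 ± 37.7 FPKM (SD, n = 3). SRUG_06711, model 283 of contig 7, had 321, 229 and 175 FPKM (5542, 3770 and 2824 counts), with library 1 clearly the highest, and a mean of 242 ± 73.8 FPKM (SD, n = 3). SRUG_04690, model 888 of contig 4, had 149.7, 303 and 238 FPKM (3391, 6555 and 5039 counts), with library 1 the lowest, and a mean of 230.4 ± 76.9 FPKM (SD, n = 3). Their ranks by mean FPKM were 495, 594 and 632, so that each was above 94.6% or more of all models.

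SRUG_08181 stood apart at the low end. This gene, model 266 of contig 9, had 10.8, 28.0 and 10.7 FPKM in libraries 1, 2 and 3, from 241, 598 and 223 counts. Libraries 1 and 3 were nearly equal and library 2 was far above both. Its mean of 16.5 ± 9.96 FPKM (SD, n = 3) was above that of 41.4% of the models, and without library 2 the mean was 10.7 FPKM. It was above the median model of its library in library 2, where that median was 25.4 FPKM, and below it in libraries 1 and 3 (21.0 and 23.8 FPKM). The other 6 genes were above the median model in every library. The counts of SRUG_08181 were far over the 6 counts, or 3 fragments, that a count of 0 allows, so the gene was detected in each library.

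**Figure D1:**
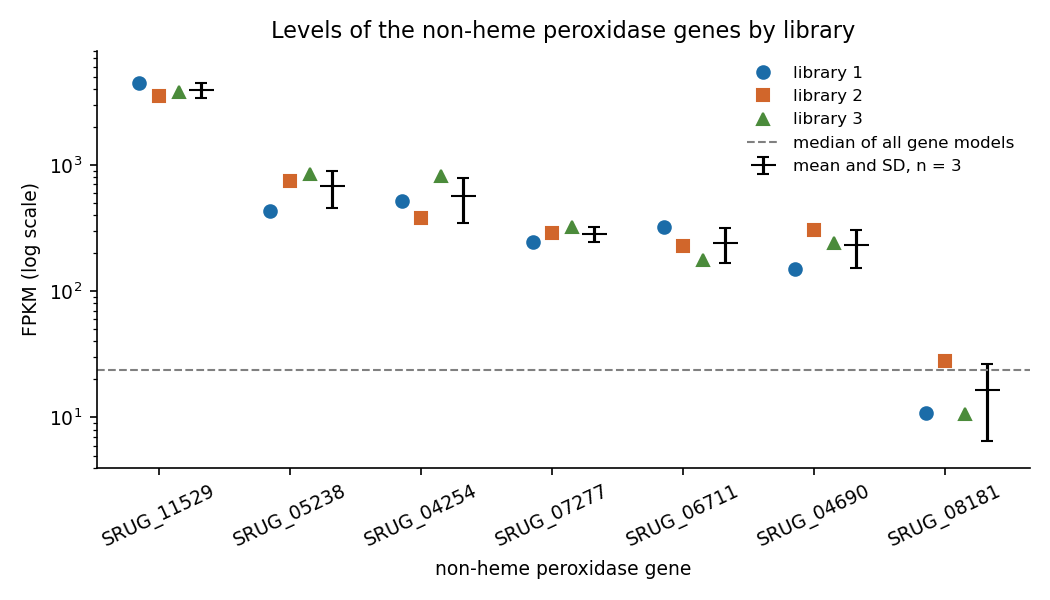
FPKM of the 7 non-heme peroxidase genes (vertical axis, log scale) in libraries 1, 2 and 3, with the mean and SD over the libraries (n = 3) and, as a dashed line, the median of the mean FPKM of all gene models (23.9). SRUG_11529 lies between 3478 and 4462 FPKM, 5 genes lie between 149.7 and 844 FPKM, and SRUG_08181 crosses the dashed line in library 2 alone.

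**Figure D2:**
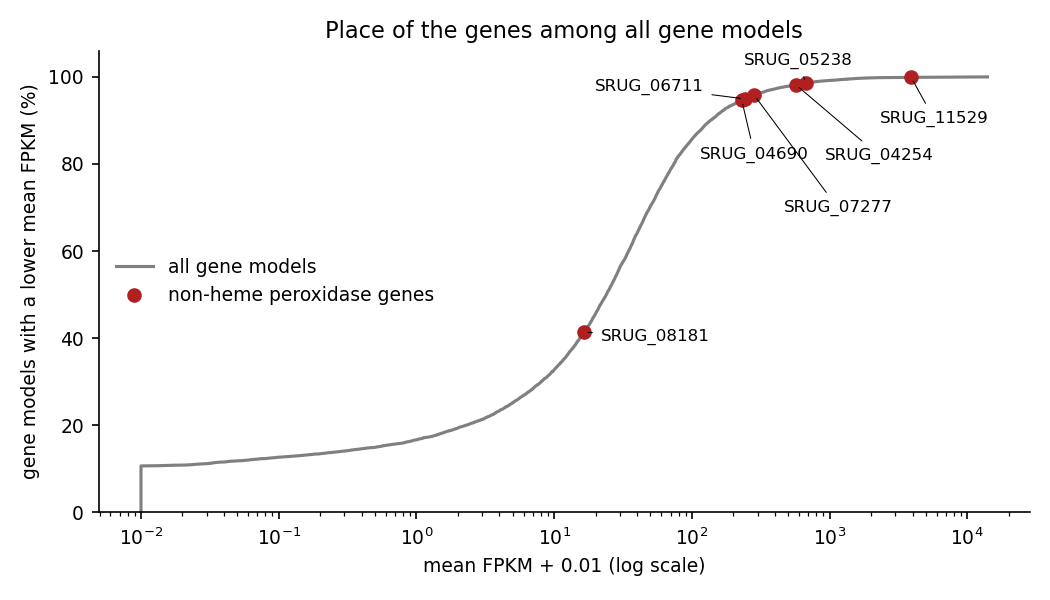
Share of all 11750 gene models with a lower mean FPKM (vertical axis, %) against mean FPKM (horizontal axis, log scale, 0.01 added so that models at 0 can be drawn). The grey line is all gene models and the points are the 7 genes, of which 6 lie above 94.6% of the models and SRUG_08181 above 41.4%.

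Of the 21 pairs that can be made from the 7 genes, 17 had the same order in all 3 libraries and 4 did not. The changing pairs were SRUG_05238 with SRUG_04254, and the 3 pairs among SRUG_07277, SRUG_06711 and SRUG_04690. For the 6 pairs of genes next to each other in the mean, the difference of log2(FPKM + 1) within each library was tested with an exact sign-flip permutation test, two-sided. With 3 libraries this test cannot give a p below 0.25, so no pair could pass 0.05.

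SRUG_11529 exceeded SRUG_05238 in 3 of 3 libraries, by 2.58 ± 0.68 on the log2 scale (SD, n = 3; exact p = 0.25, 0.50 after Benjamini-Hochberg adjustment over the 6 pairs). SRUG_04254 exceeded SRUG_07277 in 3 of 3 libraries, by 0.94 ± 0.50 (SD, n = 3; exact p = 0.25, adjusted 0.50). SRUG_04690 exceeded SRUG_08181 in 3 of 3 libraries, by 3.81 ± 0.50 (SD, n = 3; exact p = 0.25, adjusted 0.50). These 3 differences are larger than their SD between libraries, but the pairs were picked as neighbours in the same means, so this is a description of the levels. The other neighbours differed by less than their SD in FPKM. The difference was 0.26 ± 0.65 between SRUG_05238 and SRUG_04254 (SD, n = 3; exact p = 0.75, adjusted 0.90). By CPM, counts scaled to a common library total and not corrected for length, it was 0.82 ± 0.65 (SD, n = 3; exact p = 0.25), with SRUG_05238 the higher in 3 of 3 libraries. The difference was 0.26 ± 0.63 between SRUG_07277 and SRUG_06711 (SD, n = 3; exact p = 0.75, adjusted 0.90). Between SRUG_06711 and SRUG_04690 it was 0.08 ± 0.88 (SD, n = 3; exact p = 1, adjusted 1), and SRUG_06711 was the higher in library 1 alone.

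Together the 7 genes had 6141, 5450 and 6196 FPKM in libraries 1, 2 and 3, or 0.706%, 0.631% and 0.708% of the FPKM of all models. In FPKM the sum had a CV (SD divided by the mean) of 7.01%. This was below the FPKM CV of every single gene, which ran from 12.8% for SRUG_11529 to 60.5% for SRUG_08181. The order depended on the unit. By the CPM used below for the spread, the sum varied more than SRUG_07277, which had a CV of 9.04%. The share of the sum on SRUG_11529 was 72.7%, 63.8% and 61.3%, a mean of 65.9 ± 5.96% (SD, n = 3). Library 1 had the highest level of SRUG_11529 and the lowest sum of the other 6, which was 1679, 1972 and 2398 FPKM in libraries 1, 2 and 3, although SRUG_06711, like SRUG_11529, was highest in library 1. SRUG_11529 was 8.55 times the next of the 7 in library 1, and 4.65 and 4.50 times in libraries 2 and 3.

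No library was the highest for all of the genes. Library 1 was the highest for SRUG_11529 and SRUG_06711, library 2 for SRUG_04690 and SRUG_08181, and library 3 for SRUG_05238, SRUG_04254 and SRUG_07277. Over all 10494 models with a count, the shares highest in libraries 1, 2 and 3 were 24.1%, 43.4% and 32.5%. The split of 2, 2 and 3 genes does not set the 7 apart from these shares.

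The spread between libraries was further described from the counts, as CPM (counts scaled to a common library total) after TMM normalization, which allows for differences in library composition. TMM moved library 1 against libraries 2 and 3 by 0.16 and 0.14 on the log2 scale relative to the FPKM, so folds between libraries differ somewhat between these measures. The median CV was 28.7% over the 7 genes and 19.8% over the 10063 models with a mean count of at least 10. As the CV depends on the level, each gene was also placed among the 500 models nearest to it in mean CPM, and 5 of the 7 were above the median of those models.

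SRUG_07277 had the lowest CV of the 7 by CPM over all 3 libraries, whereas by deposited FPKM that of SRUG_11529 was lower (12.8% against 13.3%). SRUG_07277 had 134, 142 and 160.0 CPM in libraries 1, 2 and 3, a CV of 9.04%, which was above 21.2% of the models of like level. SRUG_11529, with 2948, 2059 and 2285 CPM and a CV of 19.0%, was also below the median of its 500 nearest models, above 40.2% of them. Those models ran from 333 to 10691 in mean CPM, so they match SRUG_11529 only loosely in level. Without library 1 the CV of SRUG_11529 was 7.35%. The place of both genes depended on the libraries used. With library 2 left out SRUG_11529 was at percentile 54.4 and SRUG_07277 at 57.6, with CVs of 17.9% and 12.3%, and with library 3 left out they were at 51.2 and 14.6, with CVs of 24.6% and 4.45%.

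SRUG_06711 and SRUG_08181 had the highest percentiles of CV for their level by CPM over all 3 libraries. SRUG_06711, with 186, 119 and 92.6 CPM, had a CV of 36.4%, percentile 90.8 among models of like level, and the high value of library 1 carried much of it (17.5%, percentile 71.6, without library 1). By deposited FPKM it was at percentile 77.6, below SRUG_04254 (81.4) and SRUG_04690 (81.0). SRUG_08181, with 8.10, 18.8 and 7.31 CPM, had a CV of 56.4%, percentile 91.2, which rested on library 2 and was 7.21%, percentile 23.2, without it. SRUG_04254 followed at percentile 84.2 with a CV of 37.7%, SRUG_04690 at 75.0 with 28.7%, and SRUG_05238 at 65.0 with 27.8%. The CV of SRUG_05238 was 9.68% and that of SRUG_04690 15.7% without library 1, and that of SRUG_04254 was 24.3% without library 2 and 52.7%, percentile 93.0, without library 1. Counting error alone would give a CV of 0.519% for SRUG_11529 and 7.52% for SRUG_08181, with 2 counts taken as 1 fragment, so depth does not limit these values, apart from the CV of SRUG_08181 without library 2, which is at the level of counting error.

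**Figure D3:**
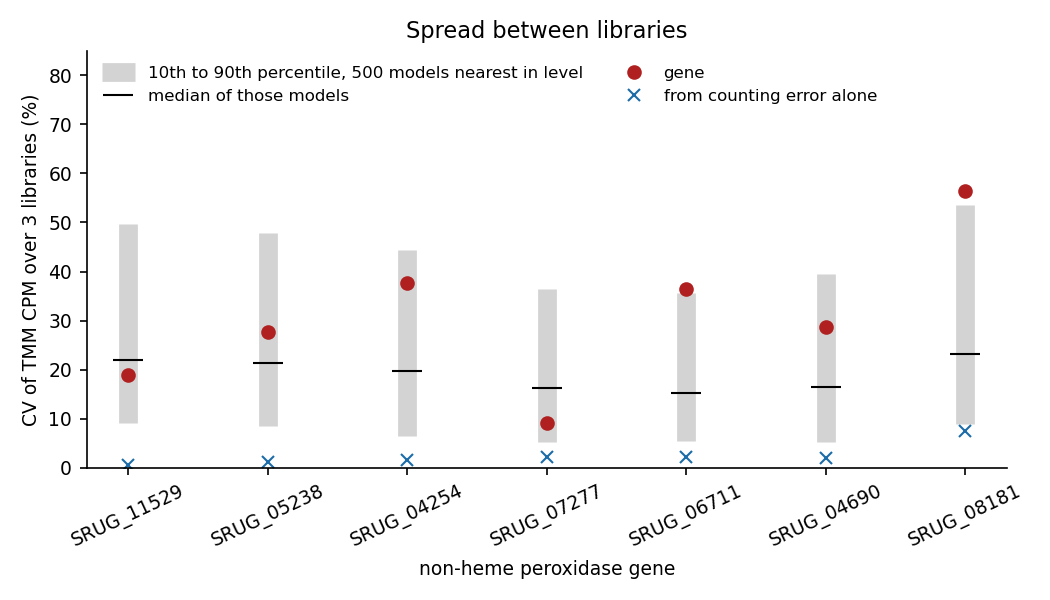
CV of TMM-normalized CPM over the 3 libraries (vertical axis, %) for each of the 7 genes (points), beside the 10th to 90th percentile (bars) and the median (ticks) of the 500 gene models nearest in mean CPM, and the CV that counting error alone would give (crosses). SRUG_06711 and SRUG_08181 lie just above their bars, and SRUG_07277 and SRUG_11529 below the median of their 500 nearest models over all 3 libraries. For SRUG_11529 those models ran from 333 to 10691 in mean CPM, a loose match in level.

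A gene was counted as apart in a library when its CPM there was at least 2-fold above, or at least 2-fold below, both others. This held for 1 of the 7 genes and for 11.3% of the 10063 models tested, and at 1.5-fold for 4 of the 7 and 30.4% of the models. The gene was SRUG_08181, which in library 2 reached 2.45 times the average CPM of the others. A rise of that kind in library 2 was found in 3.94% of the models. By the same measure library 2 was at 0.535 times the mean of the others for SRUG_04254, which 6.23% of the models fell below, and library 3 was at 1.72 times, above 95.7% of the models. SRUG_06711 was at 1.76 times in library 1, above 95.3% of the models. The remaining 4 genes stayed between 0.600 and 1.48 times in each library. The part that the difference of library 2 from the other libraries has in the values of SRUG_08181 was not tested.

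The levels of the 4 highest of the 7 genes were set beside those of other peroxidase genes in the same range. The comparators were both NADPH oxidase (Nox) genes, SRUG_01647 and SRUG_09509, whose products transfer electrons from NADPH to oxygen and so form the superoxide from which peroxide arises, and SRUG_02817, which encodes a hybrid ascorbate-cytochrome c peroxidase (APx–CcP), a heme enzyme. The 4 highest non-heme genes were compared with each of these 3, which gives 12 comparisons by the same exact sign-flip permutation test. Both sides were picked with these levels known, so the comparisons describe the levels and are no independent test. SRUG_06711, SRUG_04690 and SRUG_08181 were not compared in this way.

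SRUG_11529 was above the higher Nox gene, SRUG_01647 (1759, 1434 and 1889 FPKM in libraries 1, 2 and 3), in 3 of 3 libraries, by 1.21 ± 0.18 on the log2 scale (SD, n = 3; exact p = 0.25, adjusted 0.30). It was also above SRUG_09509 and SRUG_02817 in 3 of 3 libraries, by 4.17 ± 0.40 and 3.66 ± 0.51 (SD, n = 3; exact p = 0.25, adjusted 0.30 for each), and remained so by CPM (2.51 and 2.01). The order of SRUG_11529 and SRUG_01647 rests on the correction for length. By CPM, which is not corrected for length, SRUG_11529 was below SRUG_01647 in 3 of 3 libraries (−0.33 ± 0.18, SD, n = 3, exact p = 0.25). SRUG_05238 was above SRUG_09509 (184, 251 and 217 FPKM) in 3 of 3 libraries, by 1.58 ± 0.37 (SD, n = 3), and above SRUG_02817 (323, 406 and 222 FPKM) in 3 of 3, by 1.07 ± 0.77 (SD, n = 3; exact p = 0.25 and adjusted 0.30 for each), although by CPM the difference from SRUG_09509 was 0.24 ± 0.37 (SD, n = 3; exact p = 0.50) and that from SRUG_02817 was −0.26. SRUG_04254 was above SRUG_09509 in 3 of 3 libraries, by 1.33 ± 0.67 (SD, n = 3; exact p = 0.25, adjusted 0.30), but above SRUG_02817 in 2 of 3 (exact p = 0.50, adjusted 0.55). By CPM it was below both in 3 of 3 libraries, by −0.58 ± 0.67 and −1.09 ± 0.99 (SD, n = 3, exact p = 0.25 for each). SRUG_07277 did not differ from SRUG_02817 beyond the spread in FPKM (−0.12 ± 0.56 on the log2 scale, SD, n = 3; exact p = 1, adjusted 1), but by CPM it was below it in 3 of 3 libraries (−2.03 ± 0.56, SD, n = 3; exact p = 0.25). SRUG_07277 was above SRUG_09509 in 3 of 3 libraries, by 0.39 ± 0.18 in FPKM (SD, n = 3; exact p = 0.25, adjusted 0.30). By CPM it was below SRUG_09509 in 3 of 3 libraries (−1.53 ± 0.18, SD, n = 3, exact p = 0.25). All 3 of SRUG_05238, SRUG_04254 and SRUG_07277 were below SRUG_01647 in every library.

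The 7 genes shared a low number of counts per FPKM, a ratio that is larger for longer gene models. Relative to the median model it was 0.359 for SRUG_07277, 0.361 for SRUG_04254, 0.378 for SRUG_06711, 0.431 for SRUG_11529, 0.491 for SRUG_08181, 0.497 for SRUG_04690 and 0.535 for SRUG_05238. For the Nox genes it was 1.25 and 1.36, and for SRUG_02817 1.35. All 7 were thus below the median model, and 17.6% of the 8964 models with at least 200 counts in a library were at or below the value of SRUG_05238, the highest of the 7. By mean CPM the 7 genes therefore ranked lower than by FPKM, SRUG_11529 at 19, SRUG_05238 at 257, SRUG_04254 at 600, SRUG_04690 at 1459, SRUG_07277 at 1672, SRUG_06711 at 1865 and SRUG_08181 at 8032. SRUG_04690 thus moved above SRUG_07277 and SRUG_06711.

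The genes lie on 6 of the 21 contigs of the assembly, with SRUG_04254 and SRUG_04690 both on contig 4 but far apart in model number. None is next to another. In the tree of the study SRUG_05238 is joined to SRUG_04690, and SRUG_11529 to SRUG_07277. SRUG_05238 was 2.88, 2.47 and 3.54 times SRUG_04690 in libraries 1, 2 and 3, and both genes were lowest in library 1. SRUG_11529 was 18.3, 12.1 and 11.9 times SRUG_07277, and these genes were highest in different libraries. How reads that match more than 1 gene were treated is not known. If the sequences within a joined pair are alike enough to share reads, the split between them is uncertain.

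The 5 models listed on each side of a gene on its contig were examined for the level of the surroundings. SRUG_11529 stood far above its surroundings, which ran from 11.4 FPKM (SRUG_11526) to 641 FPKM (SRUG_11524) with a median of 55.2. SRUG_05238 (13.6 to 571 FPKM, SRUG_05233 and SRUG_05241), SRUG_04254 (3.63 to 311 FPKM, SRUG_04253 and SRUG_04252) and SRUG_04690 (0.0339 to 191 FPKM, SRUG_04695 and SRUG_04693) were above all 10 of their neighbours in mean FPKM. For SRUG_05238 (674 ± 216 against 571 ± 150 FPKM, SD, n = 3) and SRUG_04690 (230.4 ± 76.9 against 191 ± 35.5 FPKM, SD, n = 3) the margin over the highest neighbour was smaller than the SD of the gene. Only means over the libraries were compared, so the order need not hold in each library. The others were not. SRUG_07277 was exceeded by 2 of 10, with 1337 FPKM at SRUG_07282 and the lowest, 6.42 FPKM, at the adjoining SRUG_07278. SRUG_06711 was exceeded by 1 of 10, SRUG_06709 (345 FPKM), and its lowest neighbour was SRUG_06706 (6.59 FPKM). SRUG_08181 was exceeded by 3 of 10, with 75.9 FPKM at SRUG_08185 and no count at SRUG_08176.

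Thus 4 of the 7 genes were the highest of their surroundings in mean FPKM, against 8.71% of all gene models. With 2 models on each side it was 5 of the 7 against 19% of all models, and with 10 on each side 4 against 4.6%. These shares depend on the level of a gene. Of the 1685 models with a mean FPKM of at least 100, a background picked with the values in view, 46.2% were the highest of their 5 models on each side, and the 4 genes are among the 6 of the 7 that reach this level.

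**Figure D4:**
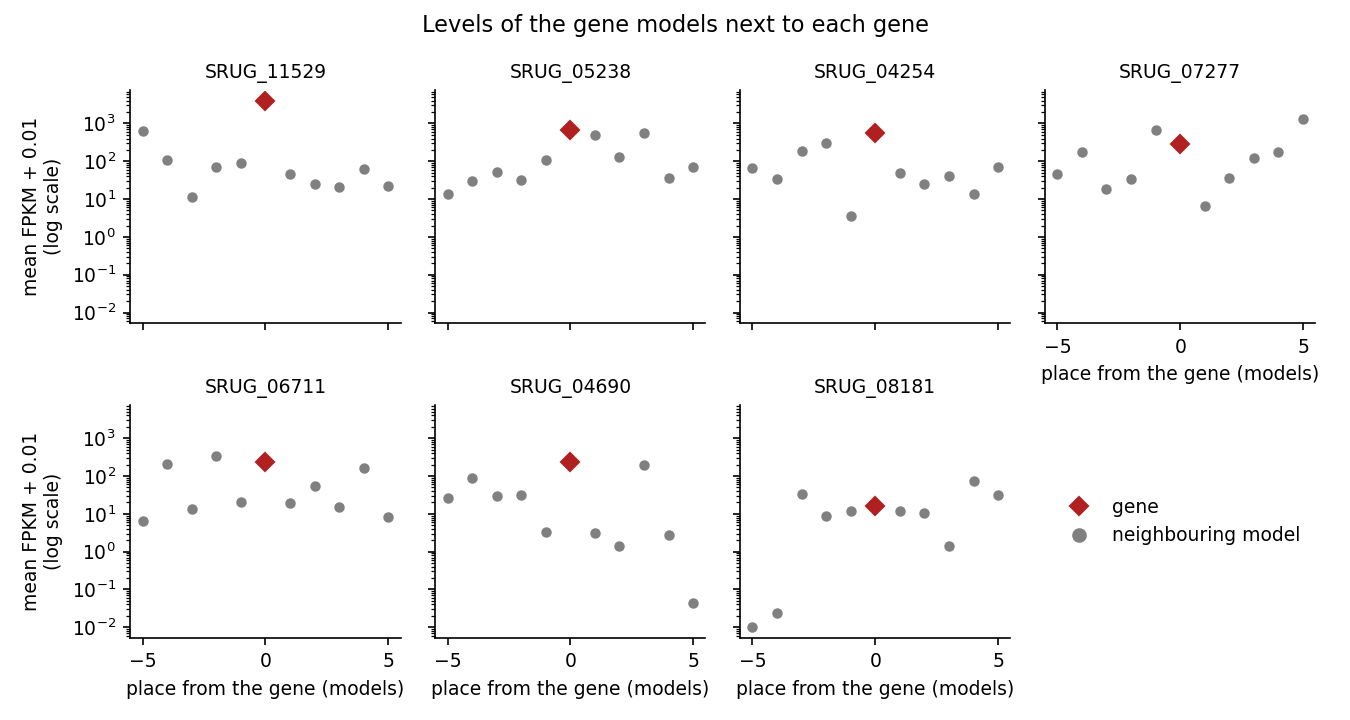
Mean FPKM (vertical axis, log scale, 0.01 added) of each of the 7 genes (diamonds) and of the 5 models listed before and after it on its contig (circles), by place from the gene in models. SRUG_11529, SRUG_05238, SRUG_04254 and SRUG_04690 lie above all 10 neighbours, and SRUG_08181 lies among its neighbours.

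For each gene, the model with the most similar level in the 3 libraries was sought by the Euclidean distance of log2(FPKM + 1), outside the 7 genes. With 3 libraries this is mostly a likeness in level. SRUG_11529 was nearest to SRUG_00979 (distance 0.34), which had 4109, 4116 and 4369 FPKM and so was not high in library 1. Only 3 models lay within 0.5 of SRUG_11529, against 69 for SRUG_07277 and 50 for SRUG_08181. SRUG_04254 was nearest to SRUG_04756 (0.15), with 554, 363 and 872 FPKM, and SRUG_06711 to SRUG_09105 (0.14), with 335, 214 and 185 FPKM. SRUG_08181 was nearest to SRUG_04109 (0.13), which at 10.3, 27.2 and 11.6 FPKM had the same high value in library 2. SRUG_05238, SRUG_07277 and SRUG_04690 were nearest to SRUG_04846 (0.37), SRUG_08923 (0.18) and SRUG_05725 (0.20).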

How the data were processed

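For the transcriptome, RNA of mycelium grown on PDA was sequenced in 3 libraries of 1 group. The authors deposited 4 tables. The whole-number counts per gene model and per transcript, deposited without normalization, differed in 0 cells, as did both tables of FPKM that the authors computed. The submitters' processing notes name fastp, HISAT2 and StringTie without versions. The use of strand, the handling of reads matching several genes and the total used for FPKM were not found in the sources used here. Of the counts from 1 to 10, 67.7% were even, so 1 fragment was taken as 2 counts.

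With 1 condition no differential test was possible. Levels are means and SD over libraries, with a pseudocount of 1 FPKM on the log2 scale. For comparisons between libraries, TMM factors were computed from the counts with edgeR 4.0.16 under R 4.3.3, with DESeq2 1.42.0 size factors as an alternative. CVs used models with a mean count of at least 10. Python 3.11.15, pandas 2.3.3, NumPy 2.4.6, SciPy 1.17.1 and matplotlib 3.10.9 were used, and the computation was tested on simulated data. Alternatives were other units, thresholds, pseudocounts, normalizations and windows, and the omission of each library. The genes named are the 7 genes, the 3 comparators, the nearest model in level, and the highest and lowest of the 10 neighbours. The genes, lists and tests were chosen with earlier results of these data known.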

Additional observations from a re-analysis of the deposited data

How the results depend on the processing

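The 7 genes with a mean FPKM of at least 1 became 6 at 50 or 100 FPKM. The share on SRUG_11529 moved by less than its SD by CPM. The median percentile of the 7 genes, 95.8, moved by more than its spread to 87.6 by CPM. It also did so among models with any count (95.3) and among models with a mean FPKM of at least 1 (94.9). With each library left out it ran from 95.6 to 96.3, and the value without library 1, 96.3, was again beyond the spread. The number of genes apart in 1 library was 1, rose to 4 at 1.5-fold (30.4% of all models), and ran from 1 to 2 with each library left out (SRUG_04254 and SRUG_08181 without library 1, SRUG_06711 without library 2, SRUG_08181 without library 3), where 11.3%, 7.02% and 15.2% of the models tested were at least 2-fold apart between the remaining libraries. By CPM the log2 difference changed sign for SRUG_06711 against SRUG_04690 (-0.31), SRUG_11529 against SRUG_01647 (-0.33), SRUG_05238 against SRUG_02817 (-0.26), SRUG_04254 against SRUG_09509 (-0.58) and SRUG_02817 (-1.09), and SRUG_07277 against SRUG_09509 (-1.53). CPM is not corrected for length. With each library left out, the log2 difference ran from -0.11 to 0.52 for SRUG_05238 against SRUG_04254, from -0.033 to 0.59 for SRUG_07277 against SRUG_06711, from -0.42 to 0.35 for SRUG_06711 against SRUG_04690 and from -0.45 to 0.060 for SRUG_07277 against SRUG_02817. The log2 ratio of library 2 to the others, with library 1 or 3 left out, ran from -0.20 to 0.64 for SRUG_05238, from -0.17 to 0.091 for SRUG_07277 (0.032 by FPKM) and from -0.64 to 0.36 for SRUG_06711. No paired analysis was possible because there is only 1 group; differences between genes were taken within each library. Depth did not limit these values, apart from the CV of SRUG_08181 without library 2, and 3 libraries of 1 condition limit every test.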
